A study of Mus musculus with 2 samples.

Results

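Postmitotic immature neutrophils of mouse bone marrow are described here: cells that carry secondary granule transcripts, no count of 6 cell cycle genes and no count of the mature neutrophil receptor Cxcr2. The members were chosen cell by cell. Barcodes with 200 or more genes and no more than 20% of counts from mitochondrial genes were kept, and a kept cell became a member where Ngp, Camp and Ltf together made up at least 1% of its counts, where Mki67, Top2a, Ube2c, Cenpf, Birc5 and Cdk1 had no count, and where Cxcr2, Csf1r, Cd79a and Cd3e had no count. This gave 2000 members among 28382 kept cells, 1239 of 15579 in the T1D library and 761 of 12803 in the control library. These 13 genes chose the members, so their levels are given as a description.

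The study compared marrow of diabetic and normal mice in relation to bone loss. The T1D library came from C57/BL6 mice given streptozotocin, a toxin of insulin-producing beta cells, and labelled with high blood sugar and type 1 diabetes. The control library came from C57/BL6 mice given sodium citrate solution, the vehicle, and labelled with normal blood sugar. Femurs and tibias were cut up and digested with collagenase and dispase, red blood cells were lysed, and single cells were captured with the Singleron GEXSCOPE kit. The labels give no age, no sex and no number of animals for either library. With 1 library per condition there is no replicate, so no difference between T1D and control was tested, and the exact 95% intervals below cover counting error within these libraries only.

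Neutrophils mature in the marrow from dividing myelocytes to postmitotic metamyelocytes and band cells, and then to segmented cells that leave for the blood. Granule proteins are made in waves: primary granule enzymes such as myeloperoxidase in promyelocytes, secondary granule proteins such as lactoferrin in myelocytes and metamyelocytes, and tertiary granule enzymes such as gelatinase later. The transcription factor C/EBP epsilon drives the secondary granule wave, and cells lose it as they become segmented. Ngp encodes neutrophilic granule protein, Camp encodes the antimicrobial peptide precursor cathelicidin, Ltf encodes the iron binder lactoferrin and Lcn2 encodes lipocalin-2, which binds bacterial siderophores.

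The promoters of these 4 genes are shown because their transcripts decide or mark membership. Each run holds the 250 bases before the RefSeq start of transcription in build GRCm38.p6, 5′ to 3′ on the gene's strand. Capitals mark matches to TTNNGNAA or its reverse complement TTNCNNAA, a core of the kind C/EBP factors bind, searched on both strands.
Ngp, chr9:110419558-110419807, plus strand: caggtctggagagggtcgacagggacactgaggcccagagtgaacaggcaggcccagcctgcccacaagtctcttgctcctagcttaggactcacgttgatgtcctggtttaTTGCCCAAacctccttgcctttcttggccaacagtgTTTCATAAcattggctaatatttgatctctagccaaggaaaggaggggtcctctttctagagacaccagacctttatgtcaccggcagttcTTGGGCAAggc
Camp, chr9:109849457-109849706, minus strand: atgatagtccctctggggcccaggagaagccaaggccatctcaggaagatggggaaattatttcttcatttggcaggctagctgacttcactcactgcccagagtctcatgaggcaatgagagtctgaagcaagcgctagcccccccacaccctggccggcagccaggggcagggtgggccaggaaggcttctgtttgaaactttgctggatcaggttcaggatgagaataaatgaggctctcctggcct
Ltf, chr9:111019042-111019291, plus strand: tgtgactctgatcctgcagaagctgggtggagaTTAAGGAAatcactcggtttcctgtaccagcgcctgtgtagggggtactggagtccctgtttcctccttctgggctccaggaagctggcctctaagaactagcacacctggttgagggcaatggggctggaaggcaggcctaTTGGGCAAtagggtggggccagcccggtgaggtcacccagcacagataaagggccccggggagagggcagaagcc
Lcn2, chr2:32387740-32387989, minus strand: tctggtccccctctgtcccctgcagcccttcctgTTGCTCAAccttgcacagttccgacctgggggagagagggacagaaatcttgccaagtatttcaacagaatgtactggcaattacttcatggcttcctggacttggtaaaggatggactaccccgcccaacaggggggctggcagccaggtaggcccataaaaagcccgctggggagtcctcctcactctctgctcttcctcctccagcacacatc
The window held 3 matches for Ngp, starting at -138, -102 and -11 from the start of transcription, 0 for Camp, 2 for Ltf at -217 and -75, and 1 for Lcn2 at -216. Of 32851 mouse promoters of this length, 36.8% held at least 1 match and 10.9% held at least 2, so the motif is common and a match is a description of these letters. Ngp, Camp and Ltf all lie on chromosome 9.

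The member share of kept cells was 7.95% in T1D (95% interval 7.53 to 8.39) and 5.94% in control (5.54 to 6.37), a ratio of 1.34 (1.22 to 1.47). The secondary granule minimum was met by 9020 T1D cells and 6073 control cells. Leaving out cells with a cell cycle count left 3827 T1D and 3000 control cells, and leaving out cells with a Cxcr2 count left 1292 T1D and 848 control cells. Taken on its own among cells over the minimum, a cell cycle count was found in 57.6% of T1D and 50.6% of control cells, and a Cxcr2 count in 54.4% of T1D and 60.2% of control cells. Because 3 of the rule's steps ask for a count of 0, the share depends on depth, and the T1D cells were shallower: the median total of a member was 2175 counts in T1D and 2950 in control, over a median of 611 and 771 genes. Thinned to 1000 counts per cell before the rule was applied, the shares were 18.9% in T1D and 16.9% in control, with a ratio of 1.12 (1.06 to 1.18). At a secondary granule minimum of 5% the ratio was 1.04 (0.939 to 1.15), and at a minimum of 0.5% it was 1.48 (1.35 to 1.62). The interval thus included 1 once cells under 5% were left out.

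The T1D library held 51680532 counts in kept cells and the control library 57296558, of which the members held 2974535 and 2399686. The libraries shared 253 barcodes, 0 of them members of both. Ribosomal RNA made up 39.4% of the members' counts in T1D and 33.4% in control, and the median mitochondrial share was 3.18% in T1D and 2.71% in control. Neutrophil transcript was also counted in cells with a count of Cd3e, a T cell gene. Ngp was counted in 74.1% of 158 such T1D cells and 69.8% of 169 such control cells, against 100% of the members of either library. The median total of the cells with a Cd3e count was 2558 counts in T1D and 2948 in control. A Cd3e count was also found in 62 T1D and 35 control cells that met the secondary granule minimum. How far free RNA or captures of more than 1 cell account for these values was not tested.

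The 4 markers of the label were present. Levels are given in CPM, the counts of a gene scaled to a common total over the members of a library. Ngp reached 33482 CPM in T1D members and 49996 CPM in control members, and Ltf 15070 CPM in T1D and 19029 CPM in control. Lcn2, which the rule did not use, stood at 7428 CPM in T1D and 12985 CPM in control and was counted in 98.4% of T1D members and 100% of control members. Among cells with a Cd3e count, Lcn2 was counted in 44.3% in T1D and 35.5% in control. Ly6g, a surface protein of neutrophils, stood at 468 CPM in T1D and 653 CPM in control. It was counted in 52.1% of T1D members and 68.6% of control members (32.5% and 42.7% after thinning to 1000 counts), against 7.59% of T1D and 4.14% of control cells with a Cd3e count. With a count of both Lcn2 and Ly6g required, the T1D to control ratio of the member share of kept cells was 1.01 (0.902 to 1.14).

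The T1D members held less secondary granule transcript per cell than the control members. Ngp, Camp and Ltf together took a median of 7.26% of a T1D member's counts, with the 5th to 95th percentile at 1.42% to 12.9%, and a median of 10.98% of a control member's counts, with 3.01% to 15.0%. In 4 bins of this share, 122 T1D and 24 control members lay at 1 to 2%, 264 and 63 at 2 to 5%, 579 and 211 at 5 to 10%, and 274 and 463 at 10% and over. The top bin thus held 22.1% of T1D members (19.8 to 24.5) and 60.8% of control members (57.3 to 64.3), a ratio of 0.363. The lowest bin held 9.85% of T1D members (8.24 to 11.6) and 3.15% of control members (2.03 to 4.66), a ratio of 3.12. Just inside the minimum, at 1 to 1.2%, lay 36 T1D and 6 control cells, and just outside it, at 0.8 to 1%, lay 46 T1D and 4 control cells. Retnlg, a late neutrophil transcript, stood at 22211 CPM just inside and 24107 CPM just outside in T1D, and at 16863 CPM just inside and 22027 CPM just outside in control.

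**Figure D1:**
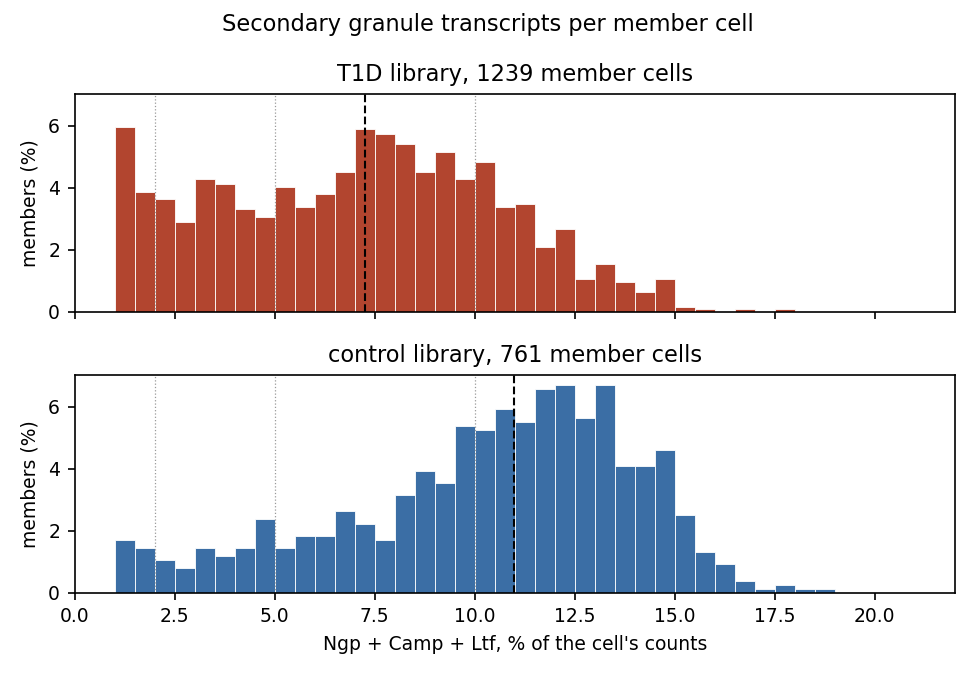
Distribution of the secondary granule share over members, T1D above control. The x axis is the percent of a cell's counts from Ngp, Camp and Ltf in steps of 0.5 points and the y axis the percent of that library's members. Dashed lines mark the medians, 7.26% in T1D and 10.98% in control, and dotted lines the bin edges at 2, 5 and 10%.

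Late neutrophil transcripts were highest in the low bins of both libraries. From the lowest bin to the highest, Retnlg went down through 20980, 16725, 8534 and 4252 CPM in T1D and through 26218, 20382, 6938 and 2922 CPM in control. Cebpe, which encodes C/EBP epsilon, was lowest in the lowest bin and highest in the top bin, at 4.02, 15.4, 72.4 and 112 CPM in T1D and at 13.9, 73.1, 71.1 and 133 CPM in control. Fcnb, a ficolin of earlier neutrophil precursors, was at 170 CPM in T1D and 156 CPM in control in the top bin, and at 27.5 CPM in T1D and 33.7 CPM in control at 2 to 5%. Il1b, the cytokine interleukin-1 beta, was at 46.8 CPM in T1D and 43.2 CPM in control in the top bin, and at 692 CPM in T1D and 361 CPM in control in the lowest. Ccr2, a monocyte chemokine receptor, was likewise at 6.68 CPM in T1D and 7.32 CPM in control in the top bin, and at 422 CPM in T1D and 445 CPM in control in the lowest. The monocyte markers together changed less. They summed to 1878, 1277, 840 and 862 CPM in T1D and to 1474, 1231, 929 and 987 CPM in control from the lowest bin to the highest. The low bins also held more promyelocyte transcript: from the lowest bin to the highest, the promyelocyte markers summed to 579, 390, 98.2 and 119 CPM in T1D and to 806, 225, 64.9 and 57.9 CPM in control. Dendritic cell markers summed to 913 CPM in T1D and 1293 CPM in control in the lowest bin, and to 163 CPM in T1D and 269 CPM in control in the top bin. B cell markers summed to 237 CPM in T1D and 1056 CPM in control in the lowest bin, and to 32.1 CPM in T1D and 136 CPM in control in the top bin. Erythroid markers summed to 1476 CPM in T1D and 250 CPM in control in the lowest bin, and to 216 CPM in T1D and 62.5 CPM in control in the top bin. The members under 5% thus carried high Retnlg and Il1b together with more transcript of several other cell types than the top bin, although they had no Cxcr2 count, and go against the label in part.

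**Figure D2:**
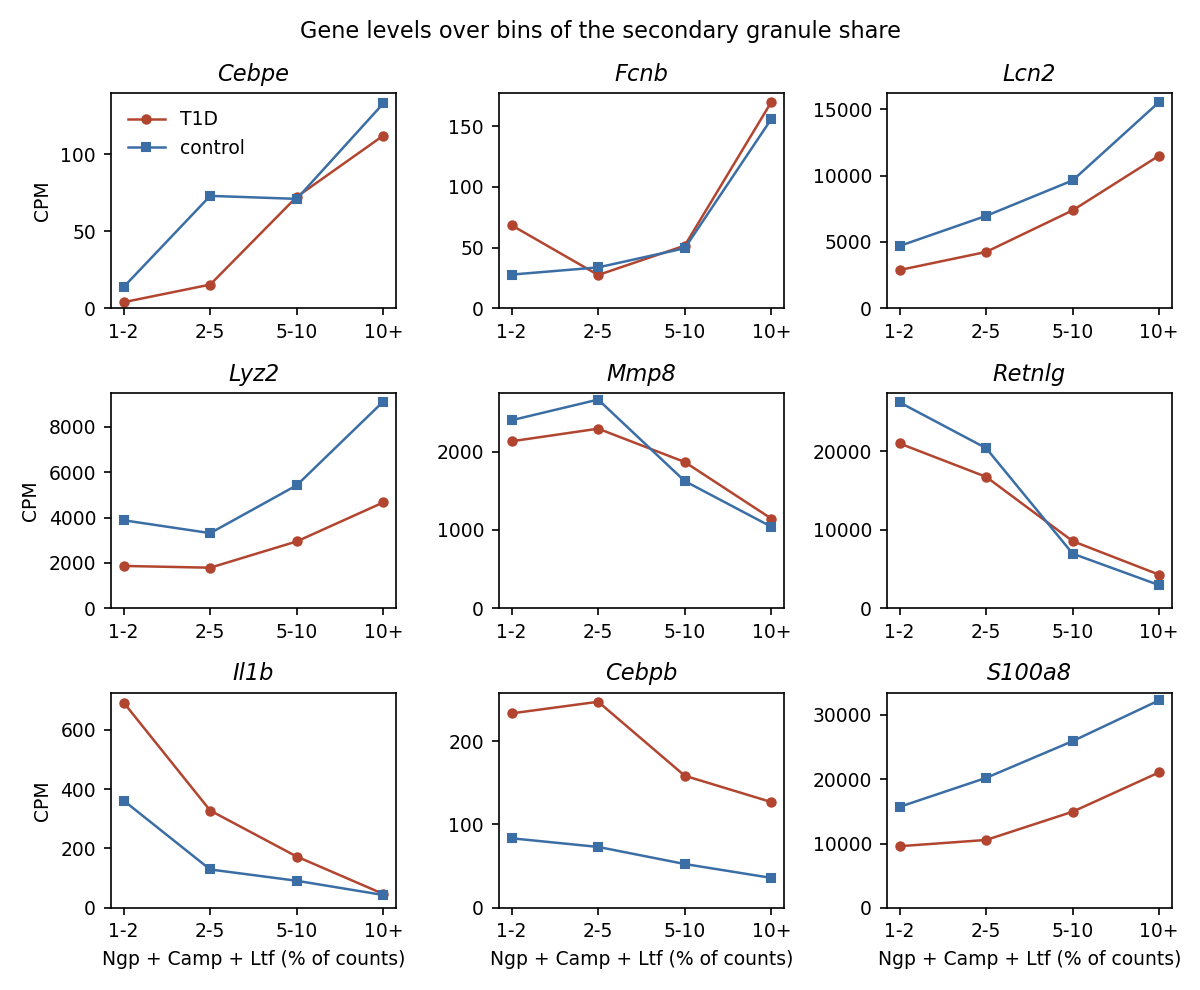
Levels of 9 genes in CPM over the 4 bins of the secondary granule share (x axis, percent of counts), T1D as circles and control as squares. Retnlg, Mmp8 and Il1b were highest in the low bins, Cebpe, Lcn2, Lyz2 and S100a8 in the top bin. In each bin Cebpb was higher in T1D and Lyz2, Lcn2 and S100a8 were lower in T1D.

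A size rule stands in for a test here: a log2 ratio of at least 1 in either direction with 5 CPM added to both sides, at least 50 CPM in the higher group and an exact 95% interval of the ratio that leaves out 1, for genes with at least 10 counts. Set against the members at 2 to 5%, the members at 10% and over had 63 of 5582 genes higher in both libraries (1.13%) and 65 lower in both (1.16%), and 0 genes went opposite ways. Besides the rule's own Ngp, Camp and Ltf, the higher genes included Orm1, an acute-phase plasma protein made also by neutrophil precursors, at 86.8 and 8.58 CPM in the 2 bins in T1D and 108 and 0 CPM in control. They also included Zmpste24, the protease that processes lamin A, at 1046 and 194 CPM in T1D and 784 and 84.3 CPM in control, and Lta4h, the enzyme that makes leukotriene B4, at 814 and 233 CPM in T1D and 878 and 236 CPM in control. Of the 22 secondary granule genes compared, 10 were higher in the top bin in both libraries and 0 lower. Ngp, Camp and Ltf, which define the bins, are among the 10. Of the 6 primary granule genes compared, 2 were higher in the top bin in both libraries, Fcnb and Serpinb1a, and 2 lower. Mpo was lower, at 30.7 and 103 CPM in T1D and 6.65 and 67.4 CPM in control, and so was Prtn3. The lower genes included Ctss, a cathepsin, at 9.35 and 161 CPM in T1D and 9.98 and 140 CPM in control, and Ahnak, a large scaffold protein, at 24.04 and 281 CPM in T1D and 21.3 and 236 CPM in control. Fn1, Irf8 and Vcan, genes known from monocytes, were lower in the top bin as well. Ly6c2, also a monocyte marker, was not lower there, at 812 and 627 CPM in T1D and 955 and 933 CPM in control.

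Members with an early and without a late transcript were rarer in T1D. After thinning every member to 1000 counts, Fcnb without Retnlg was found in 13 of 1239 T1D members (1.05%, 0.560 to 1.79) and in 37 of 761 control members (4.86%, 3.45 to 6.64), a ratio of 0.216 (0.105 to 0.415). Retnlg without Fcnb was found in 84.9% of T1D members and 67.4% of control members, both in 4.36% of T1D and 3.42% of control members, and neither in 9.69% of T1D and 24.3% of control members. Without thinning, Fcnb without Retnlg was found in 1.21% of T1D and 4.599% of control members. Retnlg was also counted in 62.7% of T1D and 49.1% of control cells with a Cd3e count, and the part of free RNA in this difference was not tested. By level, Fcnb was 78.0 CPM in T1D members and 114 CPM in control members, and Retnlg 10101 CPM in T1D members and 5998 CPM in control members. The direction for Retnlg depended on the bin: it was higher in T1D in the bins at 5 to 10% and at 10% and over, and lower in T1D in both bins under 5%. Fcnb was lower in T1D within the bin at 2 to 5% only, at 27.5 CPM in T1D and 33.7 CPM in control. It stood at 68.4 CPM in T1D and 27.8 CPM in control at 1 to 2%, where 24 control cells lay. At 5 to 10% it stood at 51.6 CPM in T1D and 49.5 CPM in control, and at 10% and over at 170 CPM in T1D and 156 CPM in control.

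Between T1D and control members, 47 of 9195 genes were higher in T1D by the size rule (0.511%) and 20 were lower (0.218%). Of the 2007 genes at 50 CPM or more in either library, these were 2.34% and 0.997%. The same rule within single bins called 1.59% of genes higher and 9.8% lower at 1 to 2%, 1.38% higher and 4.56% lower at 2 to 5%, 0.822% higher and 0.793% lower at 5 to 10%, and 0.522% higher and 0.246% lower at 10% and over. With each of the 4 bins given the same weight in both libraries the counts were 31 higher and 58 lower, a split that leans the other way. That weighting rests on only 24 control cells in the lowest bin. Of the 47 higher genes, 8 were hemoglobin, immunoglobulin or J chain genes, and of the 20 lower genes 1 was (Ighm). Erythroid marker transcripts summed to 684 CPM in T1D members and 95.01 CPM in control members, with Klf1 at 0 in both, and plasma cell markers to 485 CPM in T1D and 46.3 CPM in control. A single T1D member held 335 of the 528 Jchain counts (63.4%). B cell markers summed to 85.7 CPM in T1D members and 343 CPM in control members, with Cd79a at 0 by the rule. These values move with the comparison, and their part in it was not tested.

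**Figure D3:**
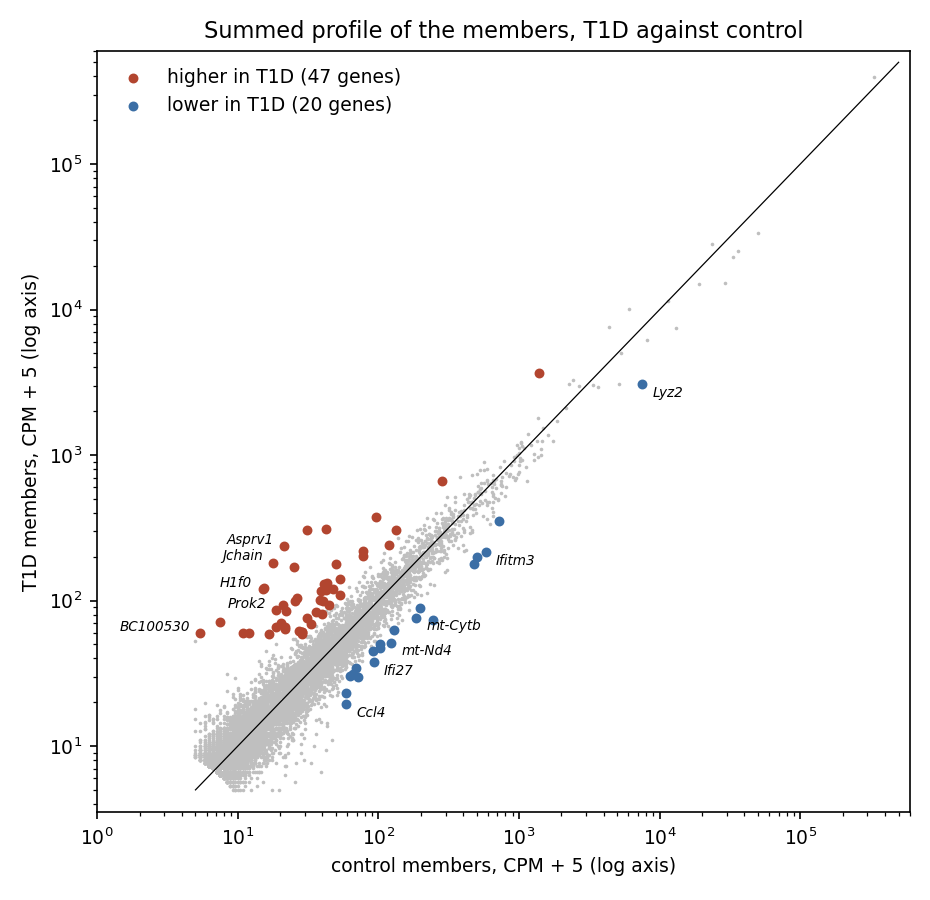
Summed profile of the members, control on the x axis and T1D on the y axis, both as CPM plus 5 on log axes. Each point is 1 of 9195 genes and the diagonal marks equal levels. The 47 genes higher in T1D are red, the 20 lower are blue, and labels name some of the genes with the largest ratios.

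Of the 28 gene lists, that of the stefins and Asprv1 had the highest median log2 ratio of T1D over control. Stefins are inhibitors of cysteine cathepsins and Asprv1 is an aspartic protease of retroviral descent. Asprv1 stood at 230 CPM in T1D members (685 counts in 327 cells) and 16.3 CPM in control members (39 counts in 30 cells), 14.2-fold higher in T1D (10.3 to 20.1). Stfa1 stood at 54.8 CPM in T1D and 5.83 CPM in control, 9.39-fold higher (5.44 to 17.6), and Stfa2l1 at 60.9 CPM in T1D and 13.8 CPM in control, 4.42-fold higher (3.04 to 6.62). BC100530, another gene of the stefin A family, had 164 counts in T1D and 1 in control, a ratio of 132 whose interval runs from 23.4 to 5257. Stfa2 had 143 counts in T1D and 0 in control, which is at least 38.5-fold higher in T1D against a floor of 3 counts over the control members. Prok2, a secreted signalling peptide, stood at 81.0 CPM in T1D and 13.8 CPM in control, 5.89-fold higher (4.08 to 8.75). Of 8 genes compared in this list, 6 passed the size rule upward and 0 downward, with a median log2 ratio of 2.33 where that of all genes was 0.00. The stefin A genes are close copies, and the sources used here do not say how reads were shared between them, so single members of the family are less certain than their sum.

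Within single bins most of these genes also stood higher in T1D. Asprv1 stood at 107 CPM in T1D and 7.32 CPM in control in members at 10% and over, and at 474 CPM in T1D and 27.8 CPM in control in members at 1 to 2%. The list's median log2 ratio was 1.93 in the top bin, 2.25 at 5 to 10% and 2.12 at 2 to 5%. Gm5483 went the other way in the lowest bin, at 113 CPM in T1D and 250 CPM in control, and with equal bins Gm5483 and Stfa2l1 had log2 ratios of -0.07 and 0.29 and did not pass. The list also stood higher in T1D in the cells on either side of the members: its median log2 ratio was 1.69 in cycling immature neutrophils and 2.08 in Cxcr2-positive neutrophils.

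Among 17 granulocyte transcription factors, Cebpb was higher in T1D by the size rule and Irf8 was lower. Cebpb encodes C/EBP beta, known for driving emergency granulopoiesis, and stood at 174 CPM in T1D members and 44.6 CPM in control members, 3.91-fold higher (3.17 to 4.86). It was counted in 30.4% of T1D members and 12.4% of control members (13.6% and 5.26% after thinning). Among cells with a Cd3e count it was counted in 21.52% in T1D and 5.92% in control, so it was higher in T1D outside the members too. In members at 10% and over it stood at 127 CPM in T1D and 35.9 CPM in control. Cebpe stood at 65.6 CPM in T1D and 108 CPM in control, a log2 ratio of -0.68, but at 72.4 CPM in T1D and 71.1 CPM in control in the 5 to 10% bin. Cebpd, Spi1 and Klf5 had log2 ratios of -0.32, -0.28 and -0.45, and Cebpa had 14 counts in T1D and 7 in control. Irf8, a factor of monocytes and dendritic cells, stood at 18.1 CPM in T1D and 53.8 CPM in control. Without members that held markers of other cell types its log2 ratio turned to 0.22.

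Of 23 secondary granule genes compared, 20 had a ratio below 1, but Lyz2 alone passed the size rule. Lyz2, lysozyme, stood at 3060 CPM in T1D members and 7536 CPM in control members, 2.46-fold lower (2.40 to 2.53). It stood at 4666 CPM in T1D and 9120 CPM in control in the top bin, and with equal bins its log2 ratio of -0.95 fell short of the rule. The list's median log2 ratio was -0.43 over all members and -0.08 with equal bins. Ngp, Camp and Ltf themselves had log2 ratios of -0.58, -0.50 and -0.34 over all members, and -0.19, -0.02 and 0.03 with equal bins. Lcn2 had -0.81 over all members and -0.50 with equal bins. Olfm4, olfactomedin 4 of a subset of neutrophils, stood at 721 CPM in T1D and 458 CPM in control, a log2 ratio of 0.65.

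The primary granule enzymes Mpo, Elane and Prtn3 were low in the members. Mpo, myeloperoxidase, stood at 49.8 CPM in T1D and 19.6 CPM in control, Elane, neutrophil elastase, at 45.4 CPM in T1D and 13.8 CPM in control, and Prtn3, proteinase 3, at 76.3 CPM in T1D and 34.6 CPM in control. Of 8 genes compared, only 3 reached 50 CPM, and Mpo and Elane, just under it, could not be called. Among those 3, Prtn3 passed the size rule (2.21-fold higher, 1.71 to 2.87). The others were Serpinb1a, at 749 CPM in T1D and 797 CPM in control, and Fcnb, at 78.0 CPM in T1D and 114 CPM in control. Serpinb1a made up most of the list's summed level, 1032 CPM in T1D and 1007 CPM in control. Over the 8 genes, 5 intervals lay above 1 and 2 below. The log2 ratio of Prtn3 turned to -0.21 with equal bins. It turned to -2.48 and -0.26 after subtraction of free RNA at the level of plasma cell genes and of hemoglobin. In cycling immature neutrophils Prtn3 stood at 941 CPM in T1D and 785 CPM in control. Tertiary granule and motility genes had a median log2 ratio of 0.01 over 14 genes, with 0 higher and only Ftl1, ferritin light chain, lower. Mmp8, a collagenase, stood at 1794 CPM in T1D and 1361 CPM in control, and Mmp9, a gelatinase, at 952 CPM in T1D and 1007 CPM in control.

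The S100 family split. S100a8 and S100a9, the subunits of calprotectin, stood at 15187 and 23034 CPM in T1D members and at 29188 and 33382 CPM in control members. S100a8 was 1.92-fold lower in T1D (1.90 to 1.94), short of the size rule, and stayed lower in the top bin at 21082 CPM in T1D and 32294 CPM in control. S100a6, a calcium-binding protein of another branch of the family, was 2.62-fold higher in T1D (2.52 to 2.72), at 3638 CPM in T1D and 1391 CPM in control. In the top bin S100a6 stood at 2698 CPM in T1D and 1025 CPM in control, while with equal bins its log2 ratio of 0.78 no longer passed.

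H1f0, a linker histone known from cells that have stopped dividing, alone passed the size rule among 23 genes of cell cycle exit and chromatin. It had 342 counts in 194 T1D cells, a level of 115 CPM, and 24 counts in 14 control cells, 11.5-fold higher in T1D (7.60 to 18.2). Its level in the top bin was 154 CPM in T1D and 10.6 CPM in control. The list's median log2 ratio was 0.03. Hist1h1c, another linker histone, stood at 207 CPM in T1D and 104 CPM in control, a log2 ratio of 0.96. S phase and G2 and M phase genes that the rule did not use were low in both libraries. Their summed levels were 184 and 133 CPM in T1D and 129 and 88.3 CPM in control. Of 15 genes compared in each list, 0 reached 50 CPM, so none could pass the size rule. Ratios lay above 1 for 12 S phase genes and 11 G2 and M phase genes, with median log2 ratios of 0.42 and 0.35. In each list 3 intervals lay above 1 and 0 below.

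**Figure D4:**
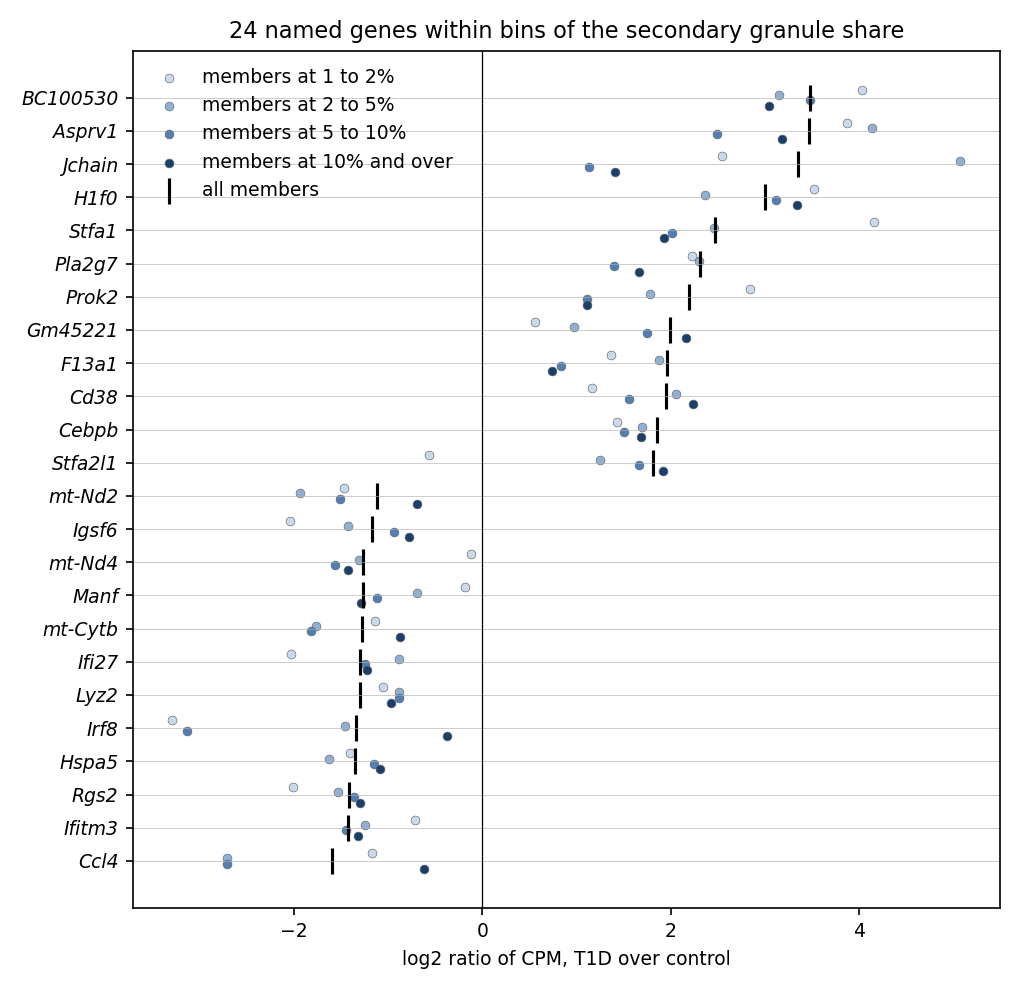
Log2 ratio of CPM, T1D over control, for the 12 highest and 12 lowest named genes, from the highest at the top. Black bars give all members and dots the members of each bin of the secondary granule share, pale for 1 to 2% and dark for 10% and over. Asprv1, H1f0, Cd38 and Cebpb lay above 0 in each bin, and Ifitm3, Rgs2, Hspa5 and Lyz2 lay below 0 in each bin.

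Genes of lipid droplets, NAD turnover and the glucocorticoid response included several that were higher in T1D members. In the lipid list 3 of 14 genes passed upward and 0 downward. Hilpda, an inhibitor of lipid droplet breakdown, stood at 64.9 CPM in T1D and 15.4 CPM in control, 4.21-fold higher (2.95 to 6.16). Plin2, a coat protein of lipid droplets, stood at 135 CPM in T1D and 48.3 CPM in control. Pla2g7, which breaks down platelet-activating factor, stood at 55.1 CPM in T1D and 7.08 CPM in control, 7.78-fold higher (4.71 to 13.7). Cd38 and Bst1, ectoenzymes that consume NAD, stood at 80.3 and 104 CPM in T1D and at 17.1 and 48.3 CPM in control. They were the 2 that passed of 5 genes of their list, which had 3 ratios above 1 and 2 below. Nt5e of that list stood lower in T1D, at 22.2 CPM in T1D and 40.0 CPM in control. Bst1 went the other way at 2 to 5%, at 122 CPM in T1D and 146 CPM in control, where the list's median log2 ratio was -0.25. Cd38 was 4.70-fold higher (3.37 to 6.72) and kept its distance in the top bin, at 84.2 CPM in T1D and 13.97 CPM in control. Fkbp5, a co-chaperone induced by glucocorticoids, stood at 58.8 CPM in T1D and 16.7 CPM in control, 3.53-fold higher (2.49 to 5.11), and Txnip, which binds thioredoxin, at 88.8 CPM in T1D and 39.6 CPM in control. These 2 were the genes that passed among 10 glucocorticoid response genes, whose median log2 ratio was 0.50. Per1 and Dusp1 of the same list stood at 77.7 and 142 CPM in T1D and at 64.2 and 98.3 CPM in control.

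Of 17 genes of the unfolded protein response, Hspa5 and Manf passed downward and 0 upward, 16 had a ratio below 1, and the median log2 ratio was -0.62. Hspa5, the main chaperone of the compartment, stood at 194 CPM in T1D members and 500 CPM in control members, 2.58-fold lower (2.34 to 2.86). Manf, a secreted stress protein, stood at 24.9 CPM in T1D and 67.1 CPM in control, 2.70-fold lower (2.04 to 3.60). Hsp90b1 stood at 158 CPM in T1D and 302 CPM in control. Atf4 was the exception with a ratio above 1, at 173 CPM in T1D and 164 CPM in control. Heat shock genes had 12 of 12 ratios below 1 and a median log2 ratio of -0.41, and 0 passed the size rule. All genes compared divided evenly, with 4598 ratios above 1 and 4597 below.

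Mitochondrially encoded messenger RNAs had 3 of 7 past the size rule downward, 7 of 7 ratios below 1 and a median log2 ratio of -0.67. The mt-Cytb transcript, of cytochrome b, stood at 70.9 CPM in T1D and 180 CPM in control, 2.53-fold lower, and mt-Nd4, of a complex I subunit, at 46.4 CPM in T1D and 118 CPM in control. The ribosomal RNA of mitochondria did not follow: mt-Rnr2 stood at 28147 CPM in T1D and 23404 CPM in control, and mt-Rnr1 at 5037 CPM in T1D and 5341 CPM in control. The nuclear ribosomal RNA feature also stood higher in T1D, and leaving it out of the totals moved the median log2 ratio of all genes to 0.11 and that of this list to -0.55.

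Interferon-induced genes had 11 ratios above 1 and 17 below. Ifitm3, a membrane protein that restricts viral entry, stood at 210 CPM in T1D members and 574 CPM in control members, 2.74-fold lower (2.49 to 3.01). Ifi27 stood at 32.6 CPM in T1D and 87.5 CPM in control, 2.68-fold lower (2.10 to 3.45). These were the 2 genes of 28 that passed, 0 passed upward, and the median log2 ratio was -0.23. Ifitm6 stood at 2980 CPM in T1D and 2678 CPM in control and Slfn4 at 1253 CPM in T1D and 1444 CPM in control. In Cxcr2-positive neutrophils 4 of 30 genes of the list were lower in T1D and the median log2 ratio was -0.89, and in cycling immature neutrophils it was -0.17. These medians were not compared by a test.

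Among signalling genes, calls came singly from different lists. Rgs2, which dampens signalling through G protein-coupled receptors, stood at 173 CPM in T1D members and 470 CPM in control members, 2.72-fold lower (2.45 to 3.03). Igsf6, a surface protein of the immunoglobulin superfamily, stood at 83.4 CPM in T1D and 194 CPM in control, 2.32-fold lower (1.99 to 2.72). Il1b stood at 215 CPM in T1D and 72.1 CPM in control, 2.98-fold higher, but at 46.8 CPM in T1D and 43.2 CPM in control in the top bin. After subtraction of free RNA at the level of plasma cell genes and of hemoglobin, its log2 ratio turned to -0.66 and -3.62. The chemokine Ccl6 stood at 94.8 CPM in T1D and 35.4 CPM in control, and at 12.02 CPM in T1D and 7.32 CPM in control in the top bin, and its log2 ratio turned to -0.95 and -2.57 after these subtractions. The chemokine Ccl4 stood at 14.5 CPM in T1D and 53.8 CPM in control, but its counts came from 15 T1D and 19 control cells, and without members holding other types' markers its log2 ratio was 0.31. F13a1, the A subunit of coagulation factor XIII and a gene of monocytes, stood at 94.1 CPM in T1D and 20.4 CPM in control, and its log2 ratio turned to -1.79 after the subtraction at the plasma cell level. The 6 monocyte markers summed to 1018 CPM in T1D members and 1004 CPM in control members, with Csf1r at 0 by the rule. Ly6c2 made up most of both sums and was lower in T1D, at 707 CPM in T1D and 907 CPM in control. Ccr2 of the same markers was higher in T1D like F13a1, at 95.8 CPM in T1D and 33.3 CPM in control. The near equal sums thus do not hold for single markers. Nfkbia, the inhibitor of NF-kappa-B, stood at 299 CPM in T1D and 128 CPM in control, 2.34-fold higher (2.05 to 2.67). The receptor for granulocyte colony-stimulating factor, Csf3r, stood at 114 CPM in T1D and 135 CPM in control, and Cxcr4, the marrow retention receptor, at 119 CPM in T1D and 74.2 CPM in control. Neither passed the size rule.

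Over all members, basic metabolism and protein synthesis lists lay near the middle of all genes, but their values moved with the bin. Glycolysis genes had 0 of 18 past the size rule and a median log2 ratio of -0.03, the pentose phosphate and glycogen list 0 of 10 and 0.04, and ribosomal protein genes 0 of 61 and -0.08. From the lowest bin to the highest, the ribosomal protein median was -0.92, -0.37, -0.37 and 0.21. For glycolysis it was -0.40, 0.03, 0.06 and -0.07, and for the pentose phosphate and glycogen list -0.24, -0.07, 0.19 and 0.20. Within the glycolysis list the enolase Eno1 stood at 109 CPM in T1D and 178 CPM in control. Of 14 genes of insulin signalling and FOXO targets only Glul, glutamine synthetase, passed, at 71.3 CPM in T1D and 25.8 CPM in control.

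The 47 genes higher in T1D members were set beside the neighbouring stages of the same libraries. Cycling immature neutrophils (2671 T1D and 1380 control cells that met the rule but for having a cell cycle count) had 26 of 12259 genes higher in T1D (0.212%) and 6 lower (0.0489%), which are 1.03% and 0.238% of those at 50 CPM or more. Cxcr2-positive neutrophils (3704 T1D and 2737 control cells with a Cxcr2 count, at least 1% S100a8 and S100a9 and no cell cycle count) had 30 of 11764 higher (0.255%) and 27 lower (0.23%), which are 1.47% and 1.32% of those at 50 CPM or more. Of the 47 genes, 17 were called higher in cycling cells too and 19 in Cxcr2-positive cells, and the sign was the same for 47 and 44. Of the 20 lower genes, 4 and 9 were called lower there too and all 20 had the same sign in both. All 3 stages come from the same libraries and differ in depth and in numbers of cells, so these are values side by side. The share of all genes with the same sign in these stages is not given here. The sign counts therefore have no background beside them and are no result about these genes. H1f0 stood at 169 CPM in T1D and 22.0 CPM in control in cycling cells and at 61.6 CPM in T1D and 5.05 CPM in control in Cxcr2-positive cells. Cebpb stood at 140 CPM in T1D and 43.8 CPM in control in cycling cells and at 338 CPM in T1D and 112 CPM in control in Cxcr2-positive cells. Rgs2 passed the size rule in the members alone, with log2 ratios of -0.95 in cycling and -0.88 in Cxcr2-positive cells, close to the minimum of 1, and the difference between stages was not tested.

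**Figure D5:**
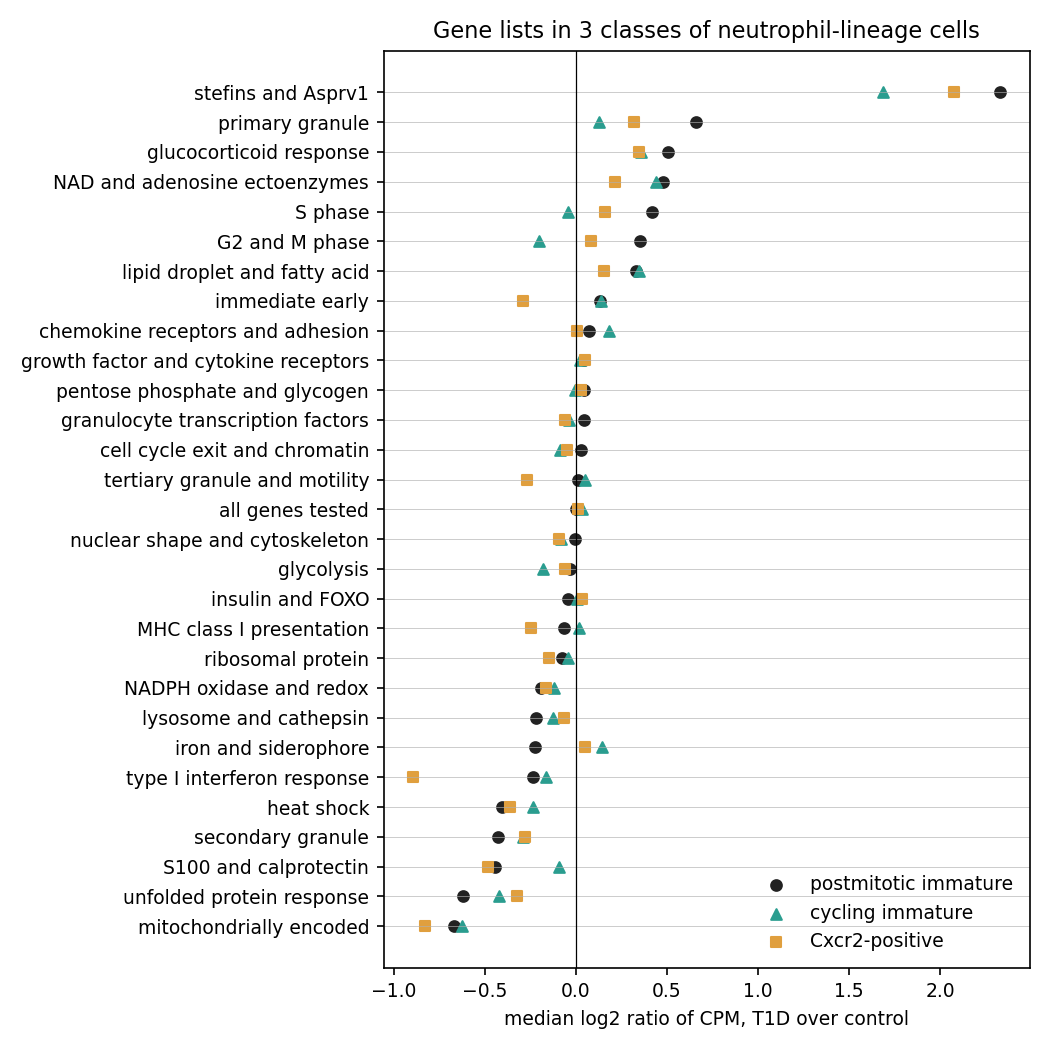
Median log2 ratio of CPM, T1D over control, for each gene list (rows) in postmitotic immature, cycling immature and Cxcr2-positive neutrophils. The stefins and Asprv1 lay highest in all 3 stages, at 2.33, 1.69 and 2.08, and mitochondrially encoded messenger RNAs lay at -0.67, -0.62 and -0.83.

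The members were also set beside cycling cells within each library, as a description, since cell cycle counts chose both. Of 10531 genes, 78 were higher in the members in both libraries (0.741%) and 423 lower (4.02%), with 0 opposite. The 6 cell cycle genes of the rule are among those lower. Mmp8 stood at 1794 CPM in T1D members and 378 CPM in T1D cycling cells, and at 1361 and 213 CPM in control. Mmp9 stood at 952 and 223 CPM in T1D and at 1007 and 210 CPM in control. Fpr1, a formyl peptide receptor that guides neutrophils to bacteria, stood at 110 and 29.6 CPM in T1D and at 95.01 and 17.8 CPM in control, and Ly6g at 468 and 163 CPM in T1D and 653 and 205 CPM in control. Of 61 ribosomal protein genes 28 were lower in the members in both libraries, and of 8 primary granule genes 5 were. Of 14 tertiary granule and motility genes 7 were higher in the members and 0 lower.

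Against Cxcr2-positive neutrophils fewer genes passed: 3 of 10060 genes were higher in the members in both libraries (0.0298%), 56 were lower (0.557%) and 3 went opposite ways. This too is a description, since Cxcr2 chose both groups and is among the 56, and the Cxcr2-positive cells were also chosen by S100a8 and S100a9. The 3 higher genes were Fcnb, Zmpste24 and Chil3, a chitinase-like protein of the marrow. Fcnb stood at 78.0 CPM in T1D members and 22.4 CPM in T1D Cxcr2-positive cells, and at 114 and 28.8 CPM in control. Chil3 stood at 3092 and 1526 CPM in T1D and at 5130 and 2462 CPM in control. The markers Lcn2 and Ly6g were not among the 3 higher genes. Lcn2 stood at 7428 and 6011 CPM in T1D and at 12985 and 10583 CPM in control. Ly6g stood at 468 and 538 CPM in T1D and at 653 and 586 CPM in control. Lower in the members were Il1b, Cxcl2, a chemokine for neutrophils, and Csf3r. Csf3r stood at 114 CPM in T1D members and 331 CPM in T1D Cxcr2-positive cells, and at 135 and 428 CPM in control. Asprv1 and Prok2 were lower in the members than in Cxcr2-positive cells within each library, while T1D stood above control in both stages.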

How the data were processed

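The deposited tables, 1 for the T1D and 1 for the control library, hold raw counts of genes by cell. The submitters' processing notes name bcl2fastq 2.19, featureCounts and build mm9. Aligner, annotation, cell calling and handling of molecular identifiers were not given in the sources used here, and values are called counts. Cells were kept with at least 200 genes and at most 20% mitochondrial counts. No doublet caller was run, and members with other types' markers were left out as an alternative. Counts were summed over members per library, scaled to CPM with ribosomal RNA included, and compared with 5 CPM added. Intervals are Clopper-Pearson for shares and exact conditional binomial for ratios, and floors are 3 counts. They cover counting error only. Tested on simulated counts of the T1D against control comparison of members (8940 genes), the size rule called 0 of 50 genes changed 1.5-fold and 21 of 50 at 2-fold. It called 50 of 50 at 3-fold and 0 of 8740 unchanged genes. The simulated counts came from the summed control profile with counting error alone. They held no spread between cells, no difference in bins and no free RNA, so false calls from these are not measured.

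Members and gene lists were chosen with earlier results of these data known. Genes were named by rule: the 12 highest and 12 lowest log2 ratios past the size rule without antigen receptor and hemoglobin genes (J chain stayed in), the genes and markers of the membership rule, and, for each of 28 lists, up to 4 with the highest CPM and up to 2 with the largest ratio at 50 CPM or more. Genes outside it, such as Stfa2, Cebpe, Plin2, Chil3 and those between bins and stages, were chosen after their values were seen. Alternatives covered the membership rule, depth, scaling, added CPM, weights of cells and bins, and free RNA. Python 3.11.15, numpy 2.4.6, scipy 1.17.1 and pandas 2.3.3 were used.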

Additional observations from a re-analysis of the deposited data

Results flagged for a closer look

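Jchain, the joining chain of antibodies, differed in direction between stages. Its log2 ratio of T1D over control was 3.35 in postmitotic immature neutrophils, at 178 CPM in T1D and 12.9 CPM in control, and -1.05 in Cxcr2-positive neutrophils, at 69.9 CPM in T1D and 150 CPM in control. The difference was not tested, since there is 1 library per condition. A single T1D member held 63.4% of the Jchain counts of its group.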

How the results depend on the processing

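No paired analysis was possible because each condition has 1 library. Over 18 alternatives, 6 of 24 named genes called higher in T1D were called under every one (Asprv1, H1f0, Gm45221, Cd38, Cebpb and Hilpda), and so were 5 of 15 called lower (Ifitm3, Rgs2, Hspa5, Ifi27 and mt-Cytb). The ratio of member shares, 1.34, was 1.04 at a minimum of 5%, 1.48 at a minimum of 0.5%, 1.14 with T1D cells under the smallest total seen in the control library left out, 1.01 when Lcn2 and Ly6g were required and 1.12 after thinning. The 47 genes higher in T1D became 90 with totals that exclude ribosomal RNA and 31 with equal bins. The 20 lower became 10 with 20 CPM added, 58 with equal bins, 114 after subtraction of free RNA at the level of plasma cell genes and 133 at the hemoglobin level. Those levels rest on 32.4% of the plasma cell signal in T1D and 2.06% in control, and 39.7% of the hemoglobin signal in T1D and 5.72% in control. The T1D plasma cell signal was uneven: 1 member held 335 of 528 Jchain counts. Plasma cell markers summed to 84.5, 1964, 156 and 80.1 CPM in T1D from the lowest bin to the highest. How much of that signal was free RNA was not tested, so values at the plasma cell level may subtract too much in T1D. The log2 ratio changed sign for Prtn3 (-0.21) and Gm5483 (-0.070) with equal bins, for Ccl4 (0.31) and Irf8 (0.22) without members holding other types' markers, for F13a1 (-1.79), Prtn3 (-2.48), Ccl6 (-0.95) and Il1b (-0.66) at the plasma cell level, and for Prtn3 (-0.26), Ccl6 (-2.57) and Il1b (-3.62) at the hemoglobin level. The causes were not tested. TMM scaling gave 47 higher and 20 lower and DESeq2 size factors 51 and 17. Genes under 50 CPM could not be called, since the size rule sets that minimum.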
